A study of Sus scrofa with 18 samples.

Results

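Both arms of the microRNA miR-126 were followed in pig backfat, the layer of subcutaneous fat along the back. ssc-miR-126-5p and ssc-miR-126-3p were taken by their names in the column of mature miRNAs of the deposited count table, and each read sequence was counted once. They are 2 of the 240 mature miRNAs listed, and both had enough counts to be tested.

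miR-126 is a vascular miRNA of vertebrates, made in endothelial cells, the cells that line blood vessels, and in some blood cells. Its hairpin is cut from an intron of EGFL7, the gene of a protein secreted around vessel walls, and in the Sscrofa11.1 annotation of RefSeq the span of EGFL7 also holds the pig MIR126 gene. In mouse and zebrafish the 3p arm represses SPRED1 and PIK3R2, which restrain signalling from the growth factor VEGF, and in mouse the 5p arm represses DLK1 in endothelium. Each arm recognises its targets mainly through its seed, bases 2 to 8 from its 5′ end, so a read that starts at another base carries another seed.

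The study set pigs with high against pigs with low backfat deposition, to find small RNAs that differ between them. The 18 animals were Italian Large White pigs, kept in 1 environment on 1 diet, and weighed 150 to 160 kg. The high class held 5 castrated males and 4 females aged 235 to 250 days, and the low class 4 castrated males and 5 females aged 233 to 249 days. Every animal gave 1 small RNA library of whole backfat, so each value mixes fat cells, vessels, blood and other cells.

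The reads that carry the results are shown here 5′ to 3′ in the DNA letters of the deposited table, where T stands for the U of the RNA. The annotated forms come first, with the seed in capitals.
miR-126-5p, annotated: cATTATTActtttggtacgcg
miR-126-3p, annotated: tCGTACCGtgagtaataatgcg
The next sequences are reads of the 3p arm that start 1 base upstream or 1 base downstream, shown because the seed in capitals moves with the start.
miR-126-3p, 1 base upstream: cTCGTACCgtgagtaataatgcg
miR-126-3p, 1 base downstream: cGTACCGTgagtaataatgcg
The last sequences are the most abundant forms with an added base, which stands in capitals.
miR-126-5p with A: cattattacttttggtacgcgA
miR-126-3p with A: tcgtaccgtgagtaataatgcgA
miR-126-3p, 1 base downstream, with T: cgtaccgtgagtaataatgcgT
The table's annotated mature miRNAs have 171 seeds, and no other annotated miRNA has the seed of any of these forms. In a duplex of both annotated arms predicted with RNAcofold, 18 bases of the 5p arm were paired, each arm had 2 unpaired bases at its 3′ end, and the 5′ base was paired in the 5p arm and unpaired in the 3p arm.

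Library totals ranged from 9601510 to 34588252 counts. Reads of the 5p arm numbered 214382 to 1103506 per library, and reads of the 3p arm 43848 to 251390. Counting error was therefore small: the widest 95% Wilson interval of any library was ± 0.00996 percentage points for the 5p share of library counts and ± 0.00471 points for the 3p share. Intervals cover counting error only. Of the 153 pairs of libraries, 0 agreed within counting error (lowest chi-square per degree of freedom 35.5). The table listed 176 forms of the 5p arm and 309 of the 3p arm, none shared with another miRNA, and its lowest count above 0 was 10 for both arms. By the profile of 253 kinds of single-base change in other miRNAs, the libraries fell into 8 sets, of which 5 held both backfat classes. The sets were formed by clustering on the correlations of these profiles, which were 0.79 or more within sets and 0.76 or less between them. The library of high replicate 6, a female, was lowest in the level of both arms, and values are given with and without it where it matters.

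miR-126 was among the abundant miRNAs of backfat. The 5p arm averaged 25055 counts per 1000000 (CPM, after TMM scaling), which ranked 8 of 221 tested miRNAs, and the 3p arm averaged 6193 CPM and ranked 23. Together the arms took 3.12% ± 0.63 of library counts (SD, n = 18), with a lowest value of 1.56% and a highest of 4.14%. Levels of different miRNAs are read counts and also depend on how well each end is ligated to adapters, which was not tested.

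The spread of the 5p arm between animals rested on 1 library. The SD of log2 CPM over the 18 libraries was 0.46 for the 5p arm, rank 11 of the 52 miRNAs with 1000 CPM or more, and 0.32 for the 3p arm, rank 26, against a median of 0.31. Without high replicate 6 it was 0.26 for the 5p arm, rank 30, and 0.20 for the 3p arm, rank 40, against a median of 0.27. The lowest value of both arms came from high replicate 6, with 8293 CPM of 5p and 3006 CPM of 3p. The next lowest libraries had 18061 CPM of 5p and 4964 CPM of 3p. In a tissue library, fewer cells of a type and less RNA per cell cannot be told apart.

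How far high replicate 6 lay from the other libraries depended on the scaling. Its TMM factor, which divides the level of every miRNA, was 1.37, and the others ranged from 0.807 to 1.14. As a share of library counts, without TMM, it was still lowest for both arms, with 1.14% of 5p and 0.414% of 3p, and the next lowest libraries had 1.502% and 0.457%. The gap to the next library was thus 2.18 fold for the 5p and 1.65 fold for the 3p arm in CPM, but 1.31 and 1.10 fold as a share. With the size factors of the deposited table it was 1.37 and 1.18 fold.

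The lists of other cell types moved with the same factor. Summed over the list of fat cell miRNAs (miR-378, miR-103, miR-107, miR-148a-3p and miR-30a-5p), high replicate 6 had 60167 CPM and the other 17 libraries 79746 to 115551 CPM, but without TMM it had 82554 per 1000000 counts, above 4 of the others. The list for smooth muscle and pericytes, the miR-143 and miR-145 arms, was mostly miR-143-3p (mean 192826 CPM, against 1108 CPM for miR-145-5p). It summed to 118540 CPM in high replicate 6 and to 156435 to 240020 CPM elsewhere, and without TMM to 162647 against 164215 to 247423. The mesenchymal miR-199 and miR-214 summed to 10269.5 CPM there and to 14021 to 25690 CPM elsewhere, and without TMM the library lay above 1 other. The red blood cell list (miR-451, miR-144, miR-486 and miR-363) was at 4660 CPM, above 12 of the other libraries and without TMM above 16. The list of white blood cells and platelets was at 1244 CPM, above 1 of them and without TMM above 7. Other miRNAs with known roles in vessels, mostly miR-10b, summed to 313678 CPM there and to 354202 to 571925 CPM elsewhere, but without TMM the library lay above 11 others. It lay above 9 others for the skeletal muscle list and without TMM above 14, and above 5 for epithelium either way. The part of these lists and of the scaling in the low miR-126 of this library was not tested.

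Neither arm of miR-126 passed the test between backfat classes. The 5p arm had a lowest value of 8293, a median of 26684 and a highest of 34967 CPM in high backfat, against 18061, 23020 and 31646 CPM in low backfat. The classes overlapped, and 7 of 9 high libraries lay above the low median. The means were 25178 ± 7867 CPM in high and 24932 ± 4398 CPM in low backfat (SD, n = 9 each). The log2 fold change with sex as a covariate was -0.04 ± 0.18 (SE, adjusted p = 0.92, edgeR quasi-likelihood test with Benjamini-Hochberg adjustment over 221 miRNAs).

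The 3p arm gave the same picture. Its lowest, median and highest values were 3006, 6342 and 8370 CPM in high backfat and 4964, 6130 and 6966 CPM in low backfat, so that the high class reached both lower and higher. The means were 6354 ± 1567 CPM in high and 6032 ± 670 CPM in low backfat (SD, n = 9 each), with a log2 fold change of 0.04 ± 0.14 (adjusted p = 0.882, edgeR). Across all 221 miRNAs, 8 passed this test (3.62%), and neither arm of miR-126 was among them. Without high replicate 6, the log2 fold changes were 0.10 for the 5p arm and 0.16 for the 3p arm, neither past the threshold.

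**Figure D1:**
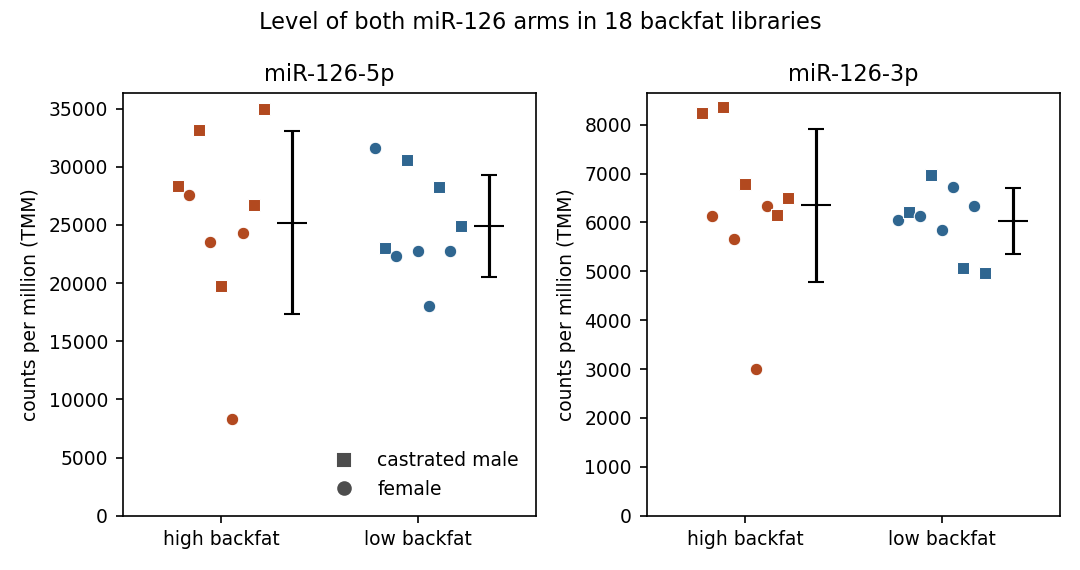
Level in CPM of miR-126-5p (left panel) and miR-126-3p (right panel) in each library by backfat class, with squares for castrated males and circles for females. Bars show the mean ± SD of 9 libraries. The classes overlap for both arms, and 1 high library lies lowest in both panels, at 8293 and 3006 CPM.

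Castrated males and females were the other contrast that the labels allowed. The 5p arm had a lowest, median and highest value of 19761, 28244 and 34967 CPM in castrated males, against 8293, 22788 and 31646 CPM in females. Of the 9 castrated males, 8 lay above the female median, and the ranges overlapped. The means were 27742 ± 4809 and 22368 ± 6473 CPM (SD, n = 9 each). The log2 fold change of castrated males over females was 0.32 ± 0.18, which did not pass (unadjusted p = 0.0994, adjusted p = 0.628, edgeR with backfat class as a covariate). The 3p arm averaged 6585 ± 1193 CPM in castrated males and 5801 ± 1092 CPM in females, a log2 fold change of 0.17 ± 0.14 (adjusted p = 0.68, edgeR). Without high replicate 6 the log2 fold changes were 0.21 for the 5p and 0.084 for the 3p arm. With edgeR, 0 of 221 miRNAs passed in this contrast (0.0%), 17 had an unadjusted p below 0.05, and DESeq2 and limma also called 0.

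Within the sexes the class differences pointed in opposite directions for the 3p arm, without passing a test. In castrated males the 3p arm had 8241, 8370, 6797, 6152 and 6499 CPM in high backfat, against 6204, 6966, 5071 and 4964 CPM in low backfat. All 5 high values lay above the low median, though the ranges overlapped. The log2 fold change was 0.31 ± 0.18 (adjusted p = 0.298, edgeR fit of 4 cells of sex by class). In females it had 6127, 5653, 3006 and 6342 CPM in high backfat, against 6048, 6130, 5839, 6727 and 6335 CPM in low backfat, where 1 of 4 high values lay above the low median. The log2 fold change was -0.23 ± 0.18 (adjusted p = 0.637), and -0.06 without high replicate 6. The difference between these contrasts, castrated males minus females, was 0.55 ± 0.26 on the log2 scale, with an unadjusted p of 0.0456 and an adjusted p of 0.433 in edgeR, and 0.40 ± 0.18 without high replicate 6.

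The 5p arm moved less in the same fit. In castrated males it had 28343, 33141, 19761, 26684 and 34967 CPM in high backfat and 23020, 30577, 28244 and 24938 CPM in low backfat, a log2 fold change of 0.10 ± 0.26 (adjusted p = 0.829). In females it had 27562, 23552, 8293 and 24295 CPM in high backfat and 31646, 22357, 22758, 18061 and 22788 CPM in low backfat, a log2 fold change of -0.17 ± 0.26 (adjusted p = 0.838). High and low values overlapped in both sexes. The difference between the sexes was 0.27 ± 0.37 (adjusted p = 0.889, edgeR). Without high replicate 6 the female value was 0.074 and the difference 0.056. In castrated males 9 of 221 miRNAs passed (4.07%). In females 0 passed with edgeR (0.0%), with 20 at an unadjusted p below 0.05 and 0 by DESeq2 or limma. For the difference 0 passed with edgeR (0.0%), with 25 at an unadjusted p below 0.05, 3 by DESeq2 and 0 by limma. A term for the 8 sets of libraries raised the 5p value in castrated males to 0.67 ± 0.27 (adjusted p = 0.194) and the difference between the sexes to 0.80 ± 0.35 (adjusted p = 0.409). Only the set of libraries coded AC485 to AC488 held castrated males of both classes. The fit with the set term was not run without high replicate 6.

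Of 28 other miRNAs with known roles in vessels, 23 were tested and 1 passed between the classes, near the 3.62% of all miRNAs. It was miR-222, which restrains endothelial migration and proliferation, with 297 ± 90.3 CPM in high and 161 ± 57.2 CPM in low backfat (SD, n = 9 each) and a log2 fold change of 0.89 ± 0.22 (adjusted p = 0.0486, edgeR). The median log2 fold change of the 23 was -0.12, against -0.03 over all 221 miRNAs. Of the other lists, all 5 mesenchymal miRNAs had negative fold changes and 2 passed. These were miR-199a-5p with -0.38 ± 0.09 and miR-199a-3p with -0.50 ± 0.13 (adjusted p = 0.0486 for both, edgeR), arms of the same hairpin. miR-199b-5p had -0.12 ± 0.15 (adjusted p = 0.654, edgeR). No member of the lists for smooth muscle and pericytes (4 tested), red blood cells (4), white blood cells and platelets (3), skeletal muscle (4), epithelium (1) or fat cells (5) passed. These calls are those of edgeR. Between the classes DESeq2 called 22 of 221 miRNAs and limma 0. The table has no endothelial marker other than miR-126 itself, so its assignment to endothelium could not be checked here.

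In all 18 libraries the 5p arm was the more abundant. The ratio of 5p to 3p reads averaged 4.06 ± 0.86 (SD, n = 18), with a lowest value of 2.68 in low replicate 6 and a highest of 5.57 in low replicate 7. The 5p arm thus made up 72.9% to 84.8% of the reads of the hairpin. Among the 43 hairpins with both arms tested, the less abundant arm of miR-126 had the highest level of all less abundant arms. Its arms were also less unequal than those of most hairpins: the mean log2 ratio was 1.99, against a median absolute log2 ratio of 3.27, which ranked 12 of 43 from the most even. The SD of its log2 ratio, 0.31, was close to the median of 0.30 among the 12 hairpins whose less abundant arm had at least 100 CPM. The 5p arm was the higher in 25 of the 43 hairpins.

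The arm ratio passed neither the test between backfat classes nor that between the sexes. Its lowest, median and highest values were 2.76, 3.96 and 5.38 in high backfat, against 2.68, 3.90 and 5.57 in low backfat, so that the ranges nearly coincided. The log2 difference was -0.11 ± 0.15 (adjusted p = 0.771, limma over 43 hairpins with sex as a covariate). Castrated males had 2.91, 4.34 and 5.57, against 2.68, 3.83 and 5.23 in females, a log2 difference of 0.19 ± 0.15 (adjusted p = 0.847, limma). With limma, 0 of 43 hairpins passed in either contrast (0.0% in each), with 11 at an unadjusted p below 0.05 for backfat class and 3 for sex. By run of library codes, 3 of the 4 libraries coded AC485 to AC488 had ratios of 5.02 to 5.57 and the fourth 3.60. The 14 other libraries lay between 2.68 and 5.23. Those 4 libraries are 1 of the 8 sets and hold 3 low and 1 high animal.

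**Figure D2:**
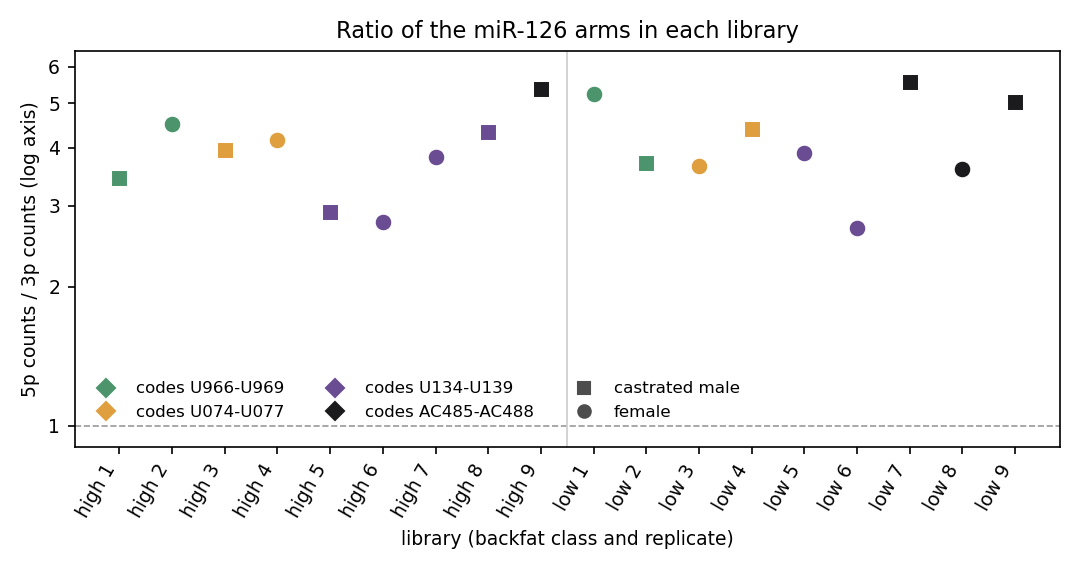
Ratio of miR-126-5p to miR-126-3p counts in each library on a log axis, high backfat left of the vertical line and low backfat right of it. Colours give the run of library codes, squares castrated males and circles females. All 18 ratios lie above 1, between 2.68 and 5.57, and 3 of the 4 libraries coded AC485 to AC488 lie above 5.

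The correlation between the arms rested on high replicate 6. Over 18 libraries Pearson's r of log2 CPM was 0.73 (permutation p = 0.0118, adjusted over 4 correlations 0.0356) and Spearman's rho 0.29 (permutation p = 0.247). As shares of library counts r was 0.58. Without the 2 libraries farthest from the median 5p level r was 0.20, and without high replicate 6 alone it was 0.21 (permutation p = 0.431). Within high backfat, which holds it, r was 0.89 (permutation p = 0.0178, rho 0.60, n = 9). Within low backfat r was -0.20 (permutation p = 0.596, rho -0.20, n = 9). Within the 6 libraries coded U134 to U139 r was 0.89 (permutation p = 0.149, rho 0.09). Arms of 1 hairpin are made in equal numbers as the hairpin is cut, and both values also share the scaling of their library.

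The miRNAs with the levels most like those of each arm were found by Pearson's r, given here with Spearman's rho. Among 173 miRNAs with at least 10 CPM, the levels most like the 5p arm over 18 libraries were those of miR-32 (r = 0.90, rho = 0.68), miR-27b-3p (0.84, 0.67), miR-20a (0.78, 0.19), miR-340 (0.78, 0.64) and miR-545-5p (0.77, 0.22). The most unlike were let-7d-3p (-0.80, -0.44), miR-339-5p (-0.79, -0.68) and miR-328 (-0.72, -0.41). For the 3p arm the most alike were let-7g (0.82, 0.61), let-7f (0.81, 0.67), miR-7 (0.81, 0.67), miR-20a (0.80, 0.32) and miR-16 (0.78, 0.39). The most unlike were miR-874 (-0.72, -0.47), miR-149 (-0.71, -0.67) and miR-425-3p (-0.71, -0.60). miR-20a was the only miRNA among the 5 most alike for both arms. Without the 2 libraries farthest from the median of the arm, r was 0.55 for miR-32 and 0.51 for miR-27b-3p with the 5p arm, but 0.11 for miR-20a and 0.05 for miR-545-5p. For the 3p arm it was 0.42 for let-7g, 0.65 for let-7f and 0.20 for miR-20a. These miRNAs were picked as extremes of 173, all values share the library and its scaling, and the values are given as a description.

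The arms differed sharply in how uniform their reads were. The annotated form made up 83.3% ± 4.53 of 5p reads and 38.2% ± 3.995 of 3p reads (SD, n = 18), and the 5p share was the higher in all 18 libraries. Among the 47 abundant miRNAs with 1 annotated form and 1 hairpin sequence, the 5p share ranked 2 and the 3p share 26, with a median of 42.4%. The 10 most abundant forms of each arm held 97.6% of 5p and 86.8% of 3p reads.

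All other form classes differed between the arms as well. Reads without mismatch that started at another base made up 0.126% of 5p and 14.7% ± 2.27 of 3p reads. Reads with the annotated start and a shorter 3′ end made up 2.42% ± 0.41 of 5p and 20.9% ± 3.43 of 3p reads, and reads with a mismatch at the 3′ end 5.995% ± 0.52 of 5p and 22.2% ± 2.28 of 3p reads. Internal mismatches went the other way, with 8.02% ± 4.82 of 5p and 3.99% ± 1.67 of 3p reads, as did reads extended by bases of the hairpin, with 0.151% of 5p and 0.0209% of 3p reads. For each of the 6 classes the sign of the difference was the same in all 18 libraries. The exact two-sided sign-flip permutation test gave p = 7.63e-06 for each, the smallest that 262144 flips allow, and the same after adjustment over 6 classes.

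The 3′ end of the 3p arm was the more ragged. Of 5p reads, 91.9% ± 0.85 ended at the annotated base, 1.09% ended 1 base and 1.54% ended 2 bases short, and 5.27% ran 1 base on, most of them with an added A. Of 3p reads, 55.0% ± 4.50 ended at the annotated base, 14.2% ± 3.09 ended 1 base and 11.97% ± 3.55 ended 2 bases short, and 17.4% ± 1.75 ran 1 base on. High replicate 1 and low replicate 1 had the most 3p reads ending 2 bases short, 23.0% and 18.0%, and also the most such 5p reads, 2.44% and 2.11%. Over 45 other abundant miRNAs the median share ending 2 bases short was 2.28% and 2.48% in these libraries, within a range of 1.71% to 2.48% over all 18.

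**Figure D3:**
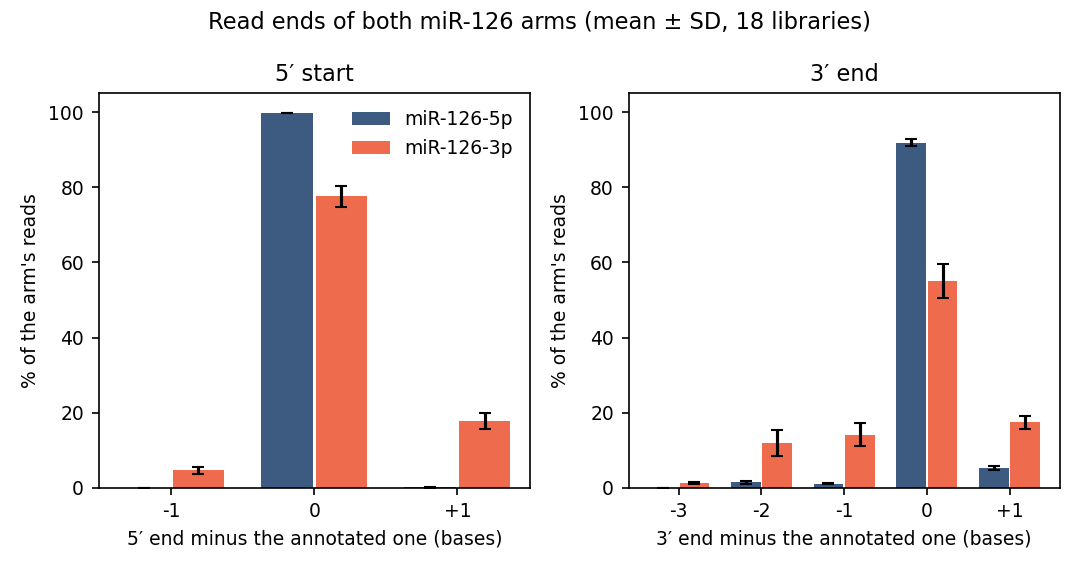
Share of the reads of miR-126-5p and miR-126-3p by the position of their 5′ start (left panel) and 3′ end (right panel), in bases from the annotated position, negative being upstream. Bars are means and error bars the SD over 18 libraries. Nearly all 5p reads (99.9%) start at the annotated base, against 77.6% of 3p reads.

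The start of the 3p arm was spread over 3 positions and that of the 5p arm sat almost wholly at 1. Counting reads with mismatches too, 99.86% ± 0.03 of 5p reads began at the annotated base (SD, n = 18), 0.029% 1 base upstream and 0.103% 1 base downstream. For the 3p arm the annotated start held 77.6% ± 2.84 of reads, the start 1 base downstream 17.8% ± 2.18 and the start 1 base upstream 4.62% ± 0.87. The annotated seed CGTACCG was thus accompanied in every library by the seed GTACCGT, at 13.2% to 22.3% of reads, and by TCGTACC, at 3.46% to 6.84%. The share of 3p reads with another start, 22.4%, ranked 4 of the 47 abundant miRNAs, whose median was 0.485%, and that of the 5p arm, 0.135%, ranked 32.

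The shares of the shifted starts overlapped between the classes. The start 1 base downstream held 15.4%, 17.5% and 22.3% of 3p reads (lowest, median and highest) in high backfat, against 13.2%, 17.1% and 19.7% in low backfat. The start 1 base upstream held 3.54%, 4.72% and 6.84% in high backfat, against 3.46%, 4.42% and 5.07% in low backfat. For reads without mismatch at any other start, the means were 15.2% ± 2.37 in high and 14.1% ± 2.15 in low backfat (exact two-sided permutation p = 0.309, adjusted p = 0.879 over 12 form shares).

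Bases added after the annotated 3′ end were almost only A and T, and on the 3p arm their kind went with the start of the read. Among reads that reached the annotated 3′ end without trimming, with at most 1 base more, the annotated start of the 3p arm carried an added A in 15.1% ± 2.05 and an added T in 7.39% ± 0.96 (SD, n = 18). Reads that started 1 base downstream carried an added T in 29.7% ± 3.63 and an added A in 9.84% ± 1.21. Reads that started 1 base upstream carried T in 2.31% ± 0.30 and A in 3.10% ± 0.68. In each of the 18 libraries the share with T was 3.79 to 4.40 times as high for the downstream start as for the annotated one, and the share with A was 0.569 to 0.713 times as high. The 5p arm at its annotated start carried A in 5.27% ± 0.68, T in 0.483% ± 0.12 and the C of the hairpin in 0.14%. This pattern was chosen for description after its values were seen, and no test is given for it.

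**Figure D4:**
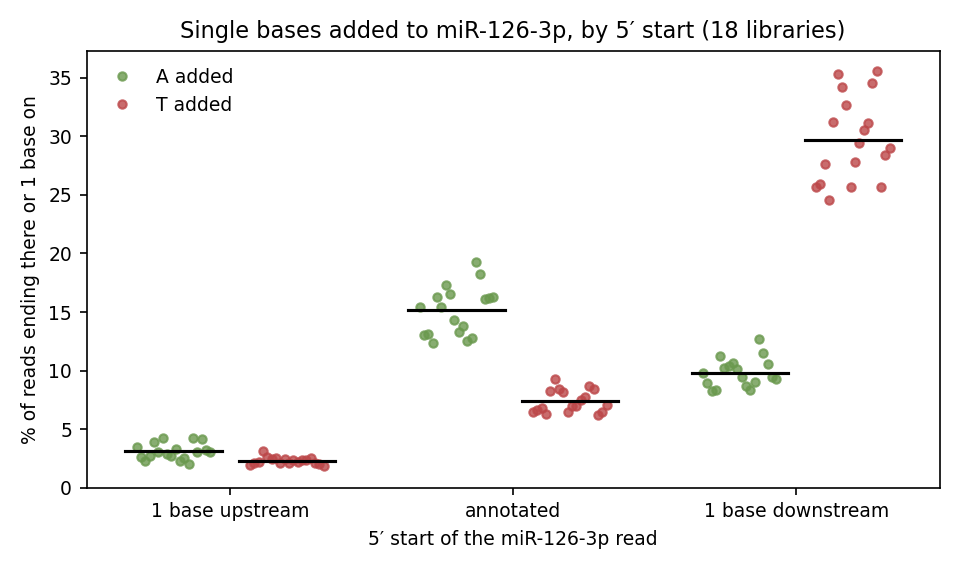
Share of miR-126-3p reads with a single A or T added after the annotated 3′ end, among reads that end at the annotated base or 1 base on, by the 5′ start of the read. Each point is 1 of 18 libraries and lines mark means. T is the more common addition for reads that start 1 base downstream (29.7%) and A for the annotated start (15.1%).

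As single sequences, the most abundant forms of the 5p arm after the annotated one were the form with an added A (C22A), with 4.66% ± 0.57 of 5p reads, and the form 2 bases shorter, with 1.41% ± 0.36. Substitutions are written with the base of the hairpin, its position from 1 at the annotated 5′ end, and the base read. For the 3p arm the forms 1 and 2 bases shorter held 9.88% ± 2.25 and 10.03% ± 2.93 of reads. The untrimmed form that starts 1 base downstream held 8.62% ± 1.49, the annotated form with an added A (C23A) 7.46% ± 1.19, and the downstream start with an added T (C23T) 4.25% ± 0.91. The annotated start with an added T held 3.62% ± 0.34, less than the downstream start with T although its untrimmed form was over 4 times as abundant.

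No sequence form of miR-126 passed the test between backfat classes. The annotated form had a log2 fold change of -0.01 for the 5p arm and 0.03 for the 3p arm, and the other 18 of the 20 most abundant forms lay between -0.14 and 0.24 (adjusted p = 0.9997 for each, edgeR over 6140 sequences). Of 181 forms tested, 83 of the 5p and 98 of the 3p arm, 0 passed with edgeR, 3 had an unadjusted p below 0.05, all of the 5p arm, and DESeq2 and limma also called 0. Over all 6140 sequences edgeR called 0 (0.0%), DESeq2 127 and limma 1. Fold changes were positive for 74 of the 98 tested forms of the 3p arm and for 36 of the 83 of the 5p arm. Forms of 1 arm share its reads and libraries and are not independent.

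The makeup of either arm passed no test between the classes. The 5p annotated form held 75.5%, 84.2% and 87.9% of reads (lowest, median and highest) in high backfat, against 75.8%, 82.6% and 87.7% in low backfat. The 3p annotated form held 33.3%, 35.0% and 43.5% in high backfat, against 32.6%, 38.7% and 44.5% in low backfat. Means differed by -0.76 percentage points for the 5p arm and -1.71 points for the 3p arm, high minus low. In exact two-sided permutation tests of 9 against 9 libraries, 0 of the 12 form shares passed, the lowest unadjusted p was 0.196 and the adjusted p lay between 0.879 and 0.989. The 3p annotated share was 43.4% to 44.5% in the 4 libraries coded AC485 to AC488 and 32.6% to 41.6% in the other 14.

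The most common internal mismatches of the 5p arm sat at bases 2 and 3, within its seed, and followed the library. They were T3A, A2T, T3G and T3C, shown here with the changed base in capitals.
T3A: caAtattacttttggtacgcg
A2T: cTttattacttttggtacgcg
T3G: caGtattacttttggtacgcg
T3C: caCtattacttttggtacgcg
As a share of its own reads plus those of the annotated form, T3A ranged from 0.347% to 5.38% and A2T from 0.106% to 5.92%. Each range was over 10 fold. Changes at the third base together were taken as a share of those reads plus the annotated form. They reached 8.28% to 11.2% in high replicates 1, 3 and 5 and 9.71% in low replicate 6, but 0.766% and 0.856% in high replicates 6 and 8. In high replicate 6 changes at bases 2 and 3 made up 0.109% and 0.683% of all 5p reads, against 2.47% for all internal mismatches. Most internal mismatches of that library thus lay at other bases. The 10 common 5p substitutions were those that reached 0.3% in a library. At least 99.07% of the variance of each lay between the 8 sets of libraries. The sets were formed without miR-126 but from the same kinds of change in other miRNAs, so this share is not independent of how they were formed. Other abundant miRNAs with the same base at the same position varied with these substitutions. Over 18 libraries r was 0.99 for T3A (7 other miRNAs) and 0.96 for A2T (19), given as a description. On the 3p arm the change C2T behaved alike, from 0.133% to 4.03% by the same kind of share, with r of 0.998 against 9 other miRNAs. Of the 22 common substitutions of both arms, 0 passed the exact permutation test between classes after adjustment, and 1 had an unadjusted p below 0.05 (T7G of the 5p arm, p = 0.0498).

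**Figure D5:**
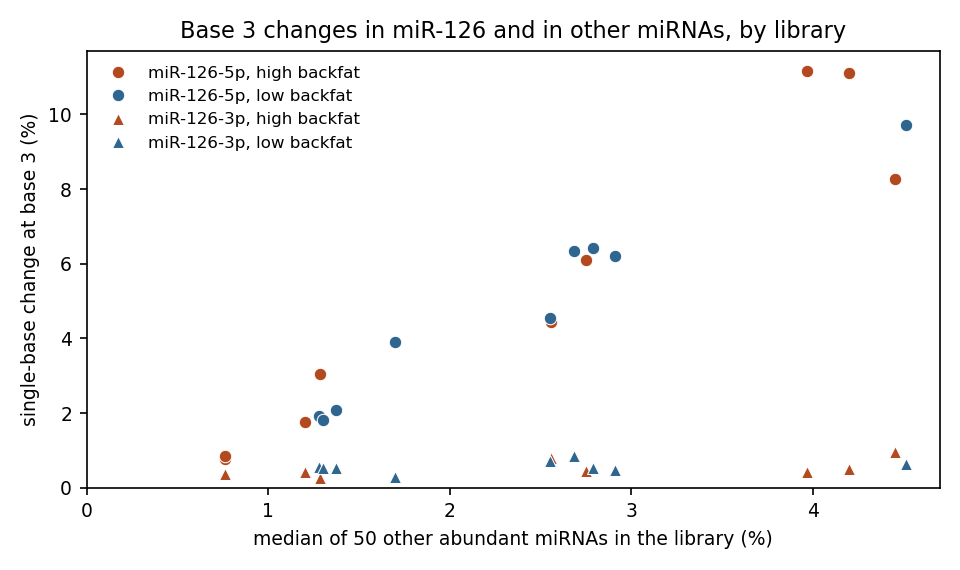
Share of reads with a single-base change at the third base, of these and the annotated form together. Values of miR-126-5p (circles) and miR-126-3p (triangles) stand against the median of 50 other abundant miRNAs in the same library, by backfat class. Each library gives 1 circle and 1 triangle. The 5p values follow the other miRNAs from 0.766% to 11.2%, and the 3p values stay below 1%.

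C7T of the 3p arm, a change within the seed, had a smaller share of its variance between the sets than the other common 3p changes.
C7T: tcgtacTgtgagtaataatgcg
It was read in all 18 libraries, with 80 to 321 reads in each. Of its own reads plus those of the annotated form it made up 0.382% ± 0.082 (SD, n = 18, widest 95% Wilson interval ± 0.0919 points). The means were 0.396% ± 0.096 in high and 0.368% ± 0.069 in low backfat (exact two-sided permutation p = 0.501), and the classes overlapped. Of its variance 65.6% lay between the sets, the lowest of the 12 common 3p substitutions, whose median was 99.4%. G3T was next, with 72.2%. With 8 sets of 18 libraries such a share is above 0 also where the sets do not differ. The 95% interval of 1 library and the SD over libraries are on different scales, so their sizes cannot be compared directly. How much of the spread of C7T is counting error was not tested. Among the 13 other abundant miRNAs with C at base 7, 0 had a higher share of C7T, and the highest was 0.0321%, in miR-181c. The source of these reads was not tested.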

How the data were processed

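Per the labels' protocols, Trizol RNA of backfat sampled at slaughter went into TruSeq Small RNA libraries that were read on an Illumina GAII. The authors deposited raw counts of reads per sequence form of each mature miRNA, and a normalised signal that equals those counts divided by 1 size factor per library. Per the submitters' processing notes the tools were Bowtie 0.12.7, HTSeq and DESeq2 1.4.5 on the build Sscrofa10.2, without roles. Settings for trimming, mismatches and minimum counts are not given in those notes. No coordinates are printed, and the host gene comes by name from RefSeq's Sscrofa11.1 table. The deposited tables hold 2 value columns of no listed sample, which were not used.

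Each read sequence was counted once per miRNA. Levels were fitted on the whole table of summed counts with edgeR 4.0.16 (quasi-likelihood F test, filterByExpr minimum count 10, TMM, R 4.3.3), arm ratios with limma 3.58.1 on log2 ratios with 0.5 added to each count, and single sequences with edgeR. SE came from the F statistic, CPM is per 1000000 counts, and the threshold was an adjusted p of 0.05 after Benjamini-Hochberg adjustment. p-values rest on the spread between libraries, 1 per animal, which mixes differences between animals with those between libraries and their sets. Exact two-sided permutation tests were used for form shares, and correlations were tested with 100000 permutations (Python 3.11.15, SciPy 1.17.1, NumPy 2.4.6, pandas 2.3.3). Forms were classed against the hairpin bases read from forms without mismatch. Substitution shares use reads with the annotated ends, and divide the changed reads by their sum with the annotated form. The duplex was predicted with RNAcofold 2.7.2, and figures used Matplotlib 3.10.9. The fits were tested on simulated data.

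Sets of libraries came from average-linkage clustering of substitution profiles, cut at a distance of 0.3. The members, lists and tests were chosen with earlier results of these data known. Named miRNAs were both arms, their 10 most abundant sequences each, the 5 most and 3 least correlated miRNAs with at least 10 CPM, and list members beside a result. Added bases, C7T and the common substitutions were picked with their values in view. Alternatives were other scaling (DESeq2 size factors), filters, tests (DESeq2 1.42.0, limma on log2 of the deposited signal plus 1 or 10), covariates, summed forms, a ratio offset of 5, and leaving out each library or those coded AC485 to AC488. A term for the library sets, permuting within sets, the arm correlation without those 4 libraries and the levels without TMM and the spread without high replicate 6 were added after seeing the data.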

Additional observations from a re-analysis of the deposited data

Results flagged for a closer look

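Of 30 groups of 9 libraries examined for a single library far from the rest, 4 held one, and chance flags about 1 in 20 groups. High replicate 6 had 3006 CPM of miR-126-3p, with the next high library at 5653 CPM, a gap of 1.88 fold. This flag was borderline, as the gap was 0.4935 of the range of the class against a limit of 0.493. The 5p level of this library was lowest too, but was not flagged. As a share of library counts, without its TMM factor of 1.37, the gap was 1.27 fold, with 0.414% against 0.526%. In low replicate 6 the annotated form made up 75.8% of 5p reads, with the next low library at 81.7%. Reads of the 3p arm extended by hairpin bases made up 0.0786% in high replicate 5 and 0.0905% in low replicate 6, with the next libraries of their classes at 0.0227% and 0.0228%. These 2 libraries form 1 of the 8 sets with like substitution profiles. Their causes were not tested.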

How the results depend on the processing

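All direct class differences of miR-126 levels, arm ratio and forms stayed short of the threshold under every alternative run, and all 6 form classes differed between the arms under each. The values near 0 changed sign. The log2 fold change of the 5p arm between classes (-0.04) became 0.011 with age added, 0.042 with the run of library codes, 0.022 with exact sequences only, 0.014 without the sex term and 0.20 with a term for library sets. It ranged from -0.084 to 0.10 leaving out 1 library. That of the 3p arm (0.04) became -0.065 without AC485 to AC488 and ranged from -0.016 to 0.16 leaving out 1 library. The 5p value within females ranged from -0.31 to 0.074, the positive one without high replicate 6. The arm ratio difference (-0.11) became 0.014 with the run of codes and 0.14 with the set term. Among form shares, high minus low in percentage points, the 5p annotated form became 0.082 among forms without mismatch and ranged from -1.74 to 0.164 leaving out 1 library. Without AC485 to AC488 other 5p starts became 0.00938 and shorter 3p forms -0.716. Leaving out 1 library, other 5p starts ranged from -0.00625 to 0.00496, longer 3p forms from -0.0088 to 0.00711 and internal mismatches of the 3p arm from -0.054 to 0.649. The correlation of the arms (0.73) ranged from 0.21 to 0.79 leaving out 1 library. The value of 0.21, without high replicate 6, did not pass (permutation p = 0.431). The correlation was 0.58 for shares of library counts and 0.84 without AC485 to AC488. The cause of these shifts was not tested.

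Over all settings the number of miRNAs called between classes ranged from 0 to 22 (main 8), within castrated males from 0 to 14 (main 9), for the difference between the sexes from 0 to 3, of hairpins called by arm ratio from 0 to 5 and of single sequences from 0 to 127. The labels give no replicate numbers that pair animals, and the nearest blocked fits are those with the term for library sets. Depth was not limiting for either arm, but forms below 10 counts in a library are listed at 0.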
